A study of Mus musculus with 12 samples.

Results

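Open chromatin around Pou3f2 and Pou3f3, the mouse genes of the POU-domain transcription factors BRN2 and BRN1, was examined in developing projection neurons of the neocortex. The members were all peaks of 12 deposited peak lists that overlapped chr4:22370000-22600000 for Pou3f2 or chr1:42650000-42850000 for Pou3f3, positions on the mouse build mm9. The Pou3f2 interval of 230 kb held 184 peaks and the Pou3f3 interval of 200 kb held 261, out of 1491780 peaks in all lists. Merged across lists wherever they overlapped or touched, these peaks formed 57 consensus regions at Pou3f2 and 65 at Pou3f3, of 498516 in the genome. A list's peaks made a region open by covering 1 bp or more, and the regions of an interval are numbered from its lower coordinate upwards. Relative to the length of each list, upper-layer lists had on average more peaks than deep-layer lists at Pou3f2 and fewer at Pou3f3. Neither difference passed adjustment over the genome. At Pou3f2 the prenatal upper-layer lists, all of E17.5, lay among the deep-layer lists, with means of 11.9 and 11.3 peaks per 100000. The lists above all deep-layer ones there were postnatal. With lists thinned to equal length the differences at Pou3f2 and Pou3f3 were 1.21 and -5.88 (exact permutation p = 0.429 and 0.0476). With the widest peaks of each list they were 4.32 and -2.42 (exact permutation p = 0.00216 and 0.318).

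The accessible DNA was mapped by ATAC-seq, which inserts sequencing adapters into open chromatin with the transposase Tn5, in GFP-positive cells sorted from the CD1 mouse neocortex. Lists of deep-layer neurons came from Golli-GFP transgenic mice of E13.5, E16.5 or E18.5, where Golli names a transcription unit of the myelin basic protein gene that is active in part of the deep-layer neurons. Upper-layer lists came from mice given a plasmid with GFP behind a Cdk5r promoter by in utero electroporation at E15.5, collected at E17.5, P1 and P5, so that they hold only the electroporated cells of that birth date. Each of the 6 groups had 2 replicates of 2 to 8 pooled animals, and all postnatal lists were upper-layer, so birth and population cannot be told apart in the comparisons that use them. Population and labelling method, transgene or electroporation, cannot be told apart in any comparison of the populations, including that of prenatal lists. Whether replicates were separate litters is not labelled, and p-values thus reflect list-to-list spread that may be technical. A peak in such a pool does not tell how many of its cells had the region open.

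Pou3f2 and Pou3f3 are class III POU genes, each coding in a single exon for a protein that binds DNA through a POU-specific domain joined to a POU homeodomain, classically at the octamer motif. In the developing cortex the proteins overlap in function: they are needed together for the production of upper-layer neurons and for their migration past the older deep-layer neurons. Pou3f2 is also known as one of the factors used to convert fibroblasts into neurons. Both genes are transcribed in progenitors as well, and both have long noncoding RNA genes as neighbours. In the RefSeq order of genes, Pou3f2 lies between Gm24607, a small nucleolar RNA, and Gm30731, the noncoding RNA also called Pnky, which is known to restrain neuron production by neural stem cells. Pou3f3 lies between the noncoding RNAs Gm46091 and 2900092D14Rik, with Pantr1 (linc-Brn1a), Pantr2 (linc-Brn1b) and Dalir (Dali) as the next neighbours on the list.

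The 250 bases before the start of each gene are shown to identify the genes by their own sequence and to compare their promoter motifs. Both members were matched in a RefSeq promoter table of build GRCm38.p6, Pou3f2 on the minus strand and Pou3f3 on the plus strand. Letters run 5′ to 3′ on the gene's strand, and capitals mark the CCAAT box, searched as CCAAT on both strands.
Pou3f2: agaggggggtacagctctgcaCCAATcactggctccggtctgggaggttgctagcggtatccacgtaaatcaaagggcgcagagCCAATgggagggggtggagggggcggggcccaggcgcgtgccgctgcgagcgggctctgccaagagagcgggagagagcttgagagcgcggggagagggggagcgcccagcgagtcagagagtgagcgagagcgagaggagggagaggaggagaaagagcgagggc
Pou3f3: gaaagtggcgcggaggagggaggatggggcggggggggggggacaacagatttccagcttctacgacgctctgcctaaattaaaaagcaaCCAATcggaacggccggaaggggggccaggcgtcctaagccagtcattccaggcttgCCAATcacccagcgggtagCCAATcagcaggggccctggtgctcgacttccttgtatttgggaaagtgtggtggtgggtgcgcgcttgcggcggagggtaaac
Pou3f2 had 2 matches and Pou3f3 had 3. Of 32851 promoters of the same length, 33.85% held at least 1 CCAAT match, 10.09% at least 2 and 2.791% at least 3. Each promoter also held 1 GC box, searched as GGGCGG on both strands and found in 32.74% of promoters. Neither held TATAAA, found in 12.37%, nor the octamer ATGCAAAT, found in 1.601%. The GC content was 66.8% at Pou3f2 and 60.8% at Pou3f3, against a median of 52.4% over all promoters. These matches describe letters in a window, and no annotation of mm9 was used here, so no peak is assigned to a promoter or to a neighbouring gene, and marker genes of the sorted populations are not analysed here.

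List length ran from 96452 peaks in deep-layer E18.5 replicate 1 to 164508 in upper-layer E17.5 replicate 1, and counts below are therefore given per 100000 peaks of the list. The median peak width of a whole list was 390 to 489 bp before birth and 302 to 326 bp after it. The 2 upper-layer E17.5 lists stood apart from the other pairs: they carried the same library name in their peak names and shared 103 identical peak intervals, against 23 to 46 in the other pairs, and 93.6% of the regions open in replicate 2 were open in replicate 1. Neither locus held an identical interval in any pair. The population and E17.5 differences below are also given with each left out.

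Peaks at Pou3f2 made up a larger share of the list in upper-layer than in deep-layer neurons. In deep-layer neurons there were 11.5 and 12.3 peaks per 100000 at E13.5, 11.8 and 11.1 at E16.5, and 11.4 and 9.69 at E18.5. In upper-layer neurons there were 11.5 and 12.2 at E17.5, 13.04 and 14.97 at P1, and 12.2 and 16.8 at P5. The E17.5 lists lay among the deep-layer lists, the P1 lists and 1 of the P5 lists lay above all of them, and the populations overlapped. The mean was 13.5 ± 2.02 (SD, n = 6) in upper-layer and 11.3 ± 0.903 (SD, n = 6) in deep-layer lists. The difference was 2.13 by an exact permutation test over the 12 lists (two-sided p = 0.0238). Adjusted by the Benjamini-Hochberg method over 11159 windows of 230 kb tiled over the genome, that exact permutation p was 0.107. Of these windows 14.9% were higher in upper-layer lists at an unadjusted p under 0.05, so such a difference was frequent in the genome. Without upper-layer E17.5 replicate 1 or replicate 2 the difference was 2.51 (exact permutation p = 0.00649) or 2.39 (exact permutation p = 0.0173). It missed the threshold without deep-layer E16.5 replicate 2 (2.09, exact permutation p = 0.0584) or E18.5 replicate 2 (1.81, exact permutation p = 0.0693), and for the raw number of peaks (3 more, exact permutation p = 0.106). It also missed it with lists thinned to equal length (1.21), in an interval shortened by 25 kb at each end (1.41) and over age-overlapping stages (1.93). With the widest 96452 peaks of each list it was 4.32 (exact permutation p = 0.00216, the smallest possible).

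Pou3f3 showed the opposite order, with fewer peaks in upper-layer lists. Deep-layer neurons had 17.7 and 19.5 peaks per 100000 at E13.5, 17.3 and 23.2 at E16.5, and 21.8 and 21.0 at E18.5. Upper-layer neurons had 14.6 and 15.4 at E17.5, 14.8 and 13.3 at P1, and 20.6 and 12.1 at P5. Only P5 replicate 1, with 20.6, reached into the deep-layer range, and the other 5 upper-layer lists lay below all deep-layer lists. The mean was 15.1 ± 2.91 (SD, n = 6) in upper-layer and 20.1 ± 2.32 (SD, n = 6) in deep-layer lists, a difference of -4.95 (exact permutation p = 0.0152, two-sided). Adjusted over 12824 windows of 200 kb the exact permutation p was 0.0881, and 18.9% of windows were lower in upper-layer lists at an unadjusted p under 0.05. The difference was -4.84 or -5.01 with either upper-layer E17.5 list left out, and the largest exact permutation p over the 12 lists left out in turn was 0.0303. The raw number of peaks differed by -4.83 with an exact permutation p of 0.0996, and with the widest peaks the difference was -2.42 with an exact permutation p of 0.318.

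**Figure D1:**
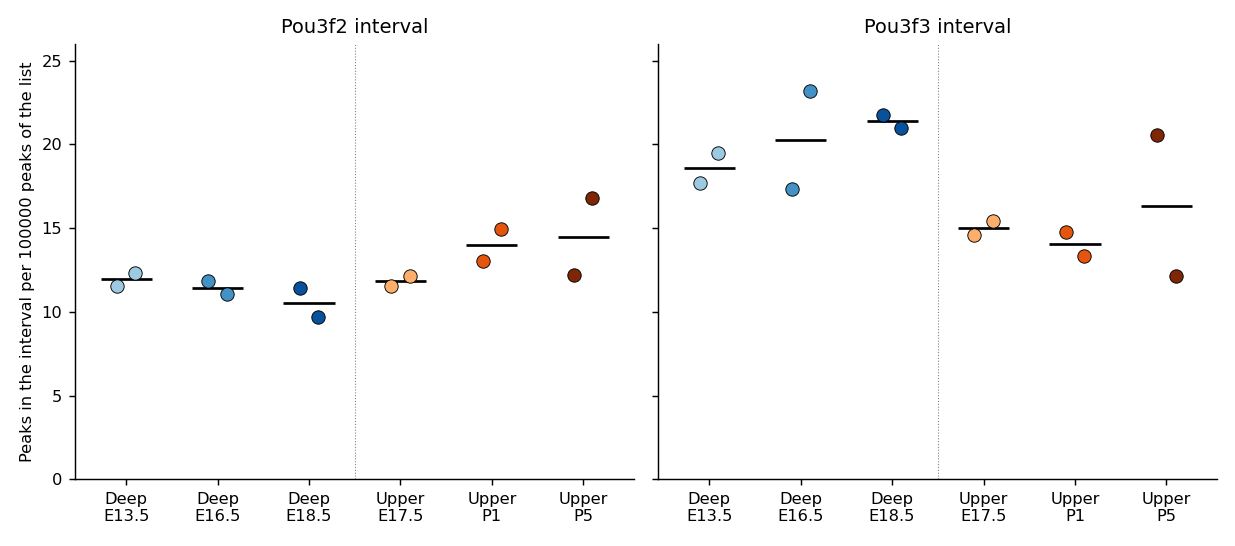
Peaks in the Pou3f2 interval (left) and the Pou3f3 interval (right) per 100000 peaks of the list, by group. Each point is 1 list and each bar the mean of 2 lists. At Pou3f2 the postnatal groups sit highest, at 14.0 and 14.5, and at Pou3f3 the deep-layer groups sit highest, at 18.6 to 21.4.

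Among prenatal lists, the E17.5 lists were lower than the deep-layer lists at Pou3f3 and lay among them at Pou3f2. At Pou3f3 the upper-layer E17.5 lists, at 15.0 ± 0.587 (SD, n = 2), lay below every deep-layer list, a difference of -5.08. The exact permutation p was 0.0357, the smallest that 28 assignments allow, and the adjusted exact permutation p was 0.289. Of the 200 kb windows 4.59% were lower at this threshold. With 1 E17.5 list left out the difference was -4.66 or -5.49, at an exact permutation p of 0.143, again the smallest possible. With the widest peaks alone it was -2.25 (exact permutation p = 0.5), and for raw peaks -2.67 (exact permutation p = 0.429). At Pou3f2 the E17.5 lists differed from the deep-layer lists by 0.55 (exact permutation p = 0.5, adjusted 0.793), where 7.51% of 230 kb windows were higher. Without E17.5 replicate 1 or 2 that difference was 0.857 or 0.234, and over all lists left out it ran from 0.220 to 0.857. With the widest peaks it was 3.28 (exact permutation p = 0.0357, the smallest possible).

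After birth the share of peaks at Pou3f2 was higher. The 4 postnatal lists had 14.2 ± 2.05 (SD, n = 4) and the 8 prenatal lists 11.5 ± 0.821 (SD, n = 8), a difference of 2.79 with overlapping lists (exact permutation p = 0.00404, adjusted over windows 0.0114). The difference passed adjustment, but 26.4% of windows were higher after birth at an unadjusted p under 0.05. It held with each list left out, from 1.95 to 3.48. It was not past the threshold for the raw number of peaks (2.125 more, exact permutation p = 0.263) or with all lists thinned to 96452 peaks (1.43, exact permutation p = 0.311). At Pou3f3 the postnatal lists had 15.2 ± 3.74 (SD, n = 4) and the prenatal lists 18.8 ± 3.07 (SD, n = 8), a difference of -3.62 (exact permutation p = 0.105, adjusted 0.156), and 33.7% of windows were lower. Without P5 replicate 1 that difference was -5.41 (exact permutation p = 0.0242).

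The share of each interval that peaks covered did not differ between populations past the threshold at either locus. Peaks covered 2.76% and 3.70% of the Pou3f2 interval at deep-layer E13.5, 2.63% and 1.94% at E16.5, and 2.58% and 3.36% at E18.5. They covered 5.88% and 4.59% at upper-layer E17.5, 3.16% and 3.39% at P1, and 3.23% and 2.97% at P5. The E17.5 lists were the highest, and their peaks were also the widest, with a median of 565 and 608 bp at Pou3f2 against 307 to 494.5 bp in the other lists. Over their whole lists the median widths of the E17.5 lists, 489 and 481 bp, were the highest as well. The population difference was 1.04 percentage points (3.87% ± 1.14 against 2.83% ± 0.623, SD, n = 6 each; exact permutation p = 0.0693, adjusted 0.2495), and 16.1% of windows were higher. Without E17.5 replicate 1 or 2 it was 0.640 or 0.898.

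At Pou3f3 the covered share was 4.03% and 5.93% at deep-layer E13.5, 4.83% and 5.19% at E16.5, and 4.89% and 8.01% at E18.5. It was 7.81% and 6.39% at upper-layer E17.5, 3.25% and 3.60% at P1, and 4.46% and 2.55% at P5. The upper-layer lists thus held both high and low values, with the E17.5 lists well above the postnatal ones. The populations differed by -0.80 percentage points (4.68% ± 2.02 against 5.48% ± 1.39, SD, n = 6 each; exact permutation p = 0.431, adjusted 0.653), and 6.89% of windows were lower. Without E17.5 replicate 1 or 2 it was -1.43 or -1.15, and over all lists left out it ran from -1.43 to -0.297.

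The Pou3f3 interval was the denser of the pair. In the same list it held 10.9 ± 2.44 peaks per 100 kb against 6.67 ± 1.25 at Pou3f2 (SD, n = 12), and it was higher in 11 of 12 lists, all but upper-layer P5 replicate 2. The mean difference was 4.21 ± 2.82 peaks per 100 kb (exact sign-flip permutation p = 0.00146, smallest possible 0.000488). Measured over the 12 lists, Pou3f2 had a mean share above that of 77.5% of windows of its length, and Pou3f3 above that of 97.5%, with window medians of 8.32 and 7.22 peaks per 100000. The excess of Pou3f3 over Pou3f2 in peaks per 100000 was 8.76 ± 2.83 (SD, n = 6) in deep-layer lists and 1.68 ± 4.48 (SD, n = 6) in upper-layer lists. It ranged from 5.52 to 12.1 in the former and from -4.66 to 8.38 in the latter. This test of the difference between loci was added after the data were seen and gave -7.09 (exact permutation p = 0.00866). With each list left out it gave -8.42 to -5.82, and the largest exact permutation p was 0.0195. For E17.5 against deep-layer lists it gave -5.62 (exact permutation p = 0.0714), and -5.52 or -5.73 without E17.5 replicate 1 or 2.

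The regions shared by all lists took up a part of each interval, and how close such regions lie elsewhere in the genome was not measured. At Pou3f2, 4 regions were open in all 12 lists and at Pou3f3 3 were, against 3.42% of all consensus regions. The 4 Pou3f2 regions lay within 22.1 kb, chr4:22404069-22426190, which is 9.62% of the interval and held 95 of its 184 peaks, or 51.6%. The 3 Pou3f3 regions lay within 20.2 kb, chr1:42751605-42771830, which is 10.1% of the interval and held 71 of 261 peaks, or 27.2%. Of the regions open in at least 8 lists, 6 of 7 at Pou3f2 and 3 of 11 at Pou3f3 lay inside these stretches. These counts include the all-list regions that set the stretches, 4 of the 6 at Pou3f2 and all 3 at Pou3f3. The all-list regions held 65 of the 95 and 56 of the 71 peaks in the stretches, or 35.3% and 21.5% of the peaks of their intervals. The shares of peaks in the stretches are thus set in part by how the stretches were chosen. With each list left out in turn, an alternative added after the data were seen, the Pou3f2 stretch stayed at 22.1 kb with 50.6% to 53.3% of the peaks. The Pou3f3 stretch depended on single lists: it was 31.2 kb with 45.8% of the peaks and 7 of 10 widely open regions without deep-layer E16.5 replicate 2. It was 29.1 kb with 38.7% of the peaks without P5 replicate 2, and 10.6 kb with 14.0% without deep-layer E18.5 replicate 2.

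**Figure D2:**
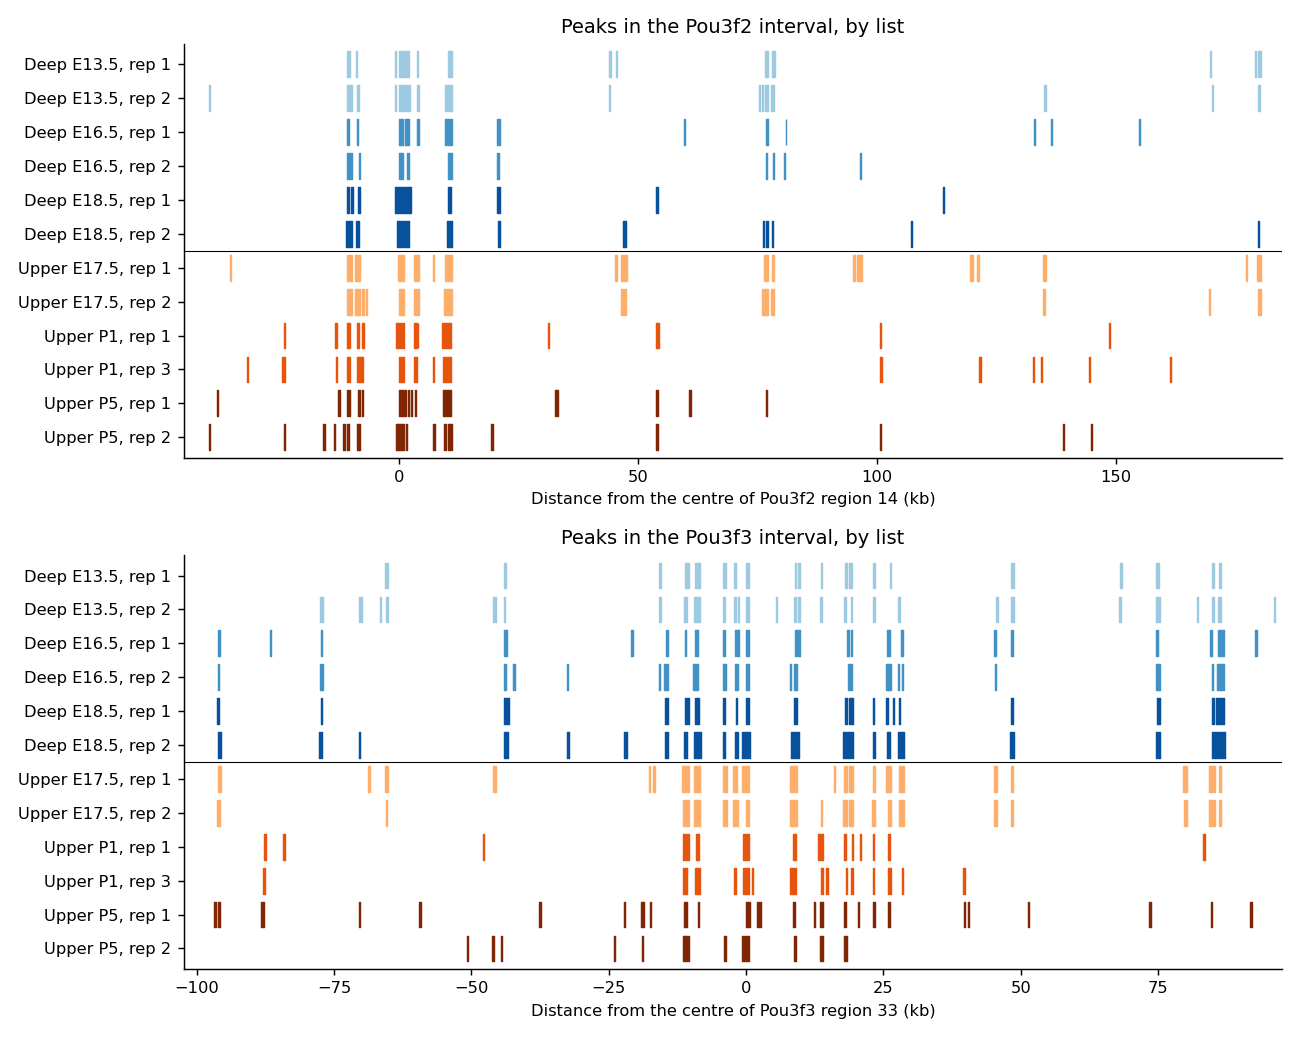
Peaks of each list along the Pou3f2 interval (top) and the Pou3f3 interval (bottom), as distance in kb from the centre of the all-list region with the widest median peak, with deep-layer lists above the line and upper-layer lists below. Each bar is 1 peak drawn to scale. The regions open in all 12 lists span 22.1 kb at Pou3f2 and 20.2 kb at Pou3f3, where the stretch is 10.6 to 31.2 kb with 1 list left out.

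Regions seen in a single list were the most frequent kind at both loci, 33 at Pou3f2 and 34 at Pou3f3, against 53.2% of all regions. They had a median length of 242 and 283 bp. The all-list regions had 1688.5 and 1869 bp, but these merge peaks of 12 lists, so the lengths are not alike in kind. Single peaks in all-list regions had median widths of 394 to 948 bp at Pou3f2 and 375.5 to 560 bp at Pou3f3. At Pou3f2 16 of the single-list regions came from prenatal and 17 from postnatal lists, and at Pou3f3 13 and 21, of which P5 replicate 1 alone gave 11 of its 27 open regions. The P5 lists had 14 and 16 open regions at Pou3f2 with 6 in common (42.9% and 37.5% of each list's), and 27 and 11 at Pou3f3 with 6 in common (22.2% and 54.5%), where 34.9% and 43.2% were shared over the genome. The deep-layer E18.5 lists had 8 and 11 at Pou3f2 with 6 in common (75% and 54.5%), and 18 and 20 at Pou3f3 with 17 in common (94.4% and 85%). Over the genome 81.2% and 61.4% were shared between these lists. Over the whole genome 28.3% to 43.8% of the regions of a postnatal list, and 2.37% to 15.2% of those of a prenatal list, were open in no other list.

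**Figure D3:**
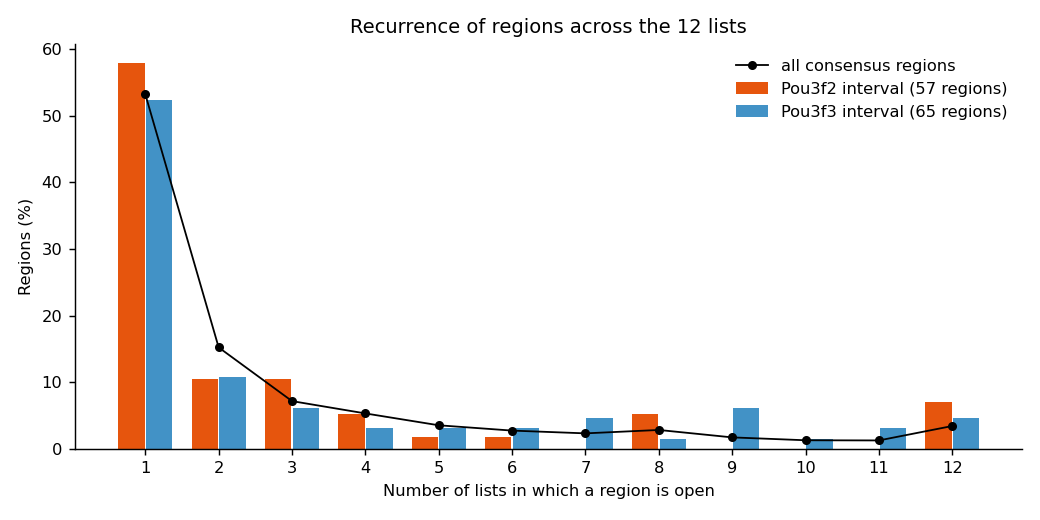
Share of consensus regions (%) by the number of lists in which a region is open, for the Pou3f2 interval (57 regions), the Pou3f3 interval (65 regions) and all consensus regions of the genome (line). Single-list regions are the largest class in each, at 57.9%, 52.3% and 53.2%, and all-list regions make up 7.02%, 4.62% and 3.42%.

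The widest of the shared Pou3f2 regions was region 14, chr4:22414152-22416149, with a median peak width of 948 bp. Its peaks covered 1107 and 1217 bp at deep-layer E13.5, 840 and 840 bp at E16.5, and 1821 and 1422 bp at E18.5. They covered 1200 and 992 bp at upper-layer E17.5, 1399 and 1026 bp at P1, and 1070 and 1417 bp at P5. Region 14 was therefore long in every list and in both populations, 1184 ± 187 against 1208 ± 375 bp (SD, n = 6 each; exact permutation p = 0.900). Region 10, chr4:22404069-22405447, with 431 to 1225 bp covered, likewise differed little between populations, by -29.7 bp (exact permutation p = 0.855).

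Regions 19 and 11 of Pou3f2 were longer in upper-layer neurons. Region 19, chr4:22424149-22426190, covered 755 and 1339 bp at deep-layer E13.5, 1222 and 723 bp at E16.5, and 794 and 1086 bp at E18.5. It covered 1508 and 1520 bp at upper-layer E17.5, 1613 and 1223 bp at P1, and 1737 and 1239 bp at P5. The lowest upper-layer list had 1223 bp, below only 1 deep-layer list. The means were 1473 ± 205 and 986.5 ± 264 bp (SD, n = 6 each), a difference of 487 bp (exact permutation p = 0.00866). The exact permutation p adjusted over the 17048 regions open in all lists was 0.142, and 10.1% of these regions were longer in upper-layer lists at an unadjusted p under 0.05. After adjustment 0% of them differed in either direction. Divided by the median peak width of each list, region 19 had a length of 4.15 ± 1.04 against 2.38 ± 0.651 widths (SD, n = 6 each; exact permutation p = 0.00866, adjusted 0.0905). This length in list widths was also greater after birth, 4.67 ± 0.866 (SD, n = 4) against 2.56 ± 0.649 (SD, n = 8; exact permutation p = 0.00202, the smallest possible, adjusted 0.0101). That call was shared by 34.4% of the all-list regions. Postnatal lists had median peak widths of 302 to 326 bp and prenatal lists 390 to 489 bp. An equal length in bp thus gives more list widths after birth. In bp the difference of region 19 after birth was 335 (exact permutation p = 0.117, adjusted 0.238). These tests of covered length were added after the data were seen.

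Region 11, chr4:22405749-22407012, lies 301 bp beyond region 10. Its peaks covered 222 and 480 bp at deep-layer E13.5, 200 and 318 bp at E16.5, and 394 and 630 bp at E18.5. They covered 1060 and 1112 bp at upper-layer E17.5, 467 and 710 bp at P1, and 439 and 629 bp at P5. The E17.5 lists were the longest, and the postnatal lists overlapped the deep-layer ones. The population means were 736 ± 289 and 374 ± 164 bp (SD, n = 6 each), a difference of 362 bp (exact permutation p = 0.0238, adjusted 0.187). Without deep-layer E16.5 replicate 1 it was 327 bp (exact permutation p = 0.0519), and without E17.5 replicate 1 or 2 it was 297 or 287 bp (exact permutation p = 0.0390 or 0.0411). In list widths, where an equal length in bp counts for more after birth, the populations did not overlap. The means were 1.95 ± 0.405 against 0.888 ± 0.337 (SD, n = 6 each, exact permutation p = 0.00216, the smallest possible, adjusted 0.0564), and 20.9% of all-list regions were longer on that scale. Among prenatal lists region 11 was 712 bp longer at E17.5 than in deep-layer neurons (1086 ± 36.8 bp, SD, n = 2; exact permutation p = 0.0357, the smallest possible, adjusted 0.278), and 11.8% of all-list regions were longer. Without E17.5 replicate 1 or 2 this was 738 or 686 bp, each at an exact permutation p of 0.143, the smallest possible.

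Between regions 14 and 19 lay regions 15 and 17 of Pou3f2, each open in 8 lists and so outside the regions that Fisher's exact test covered. Their states are given as values. Region 15, chr4:22416248-22417488, begins 98 bp beyond region 14. It was open in all 6 deep-layer lists, with 647 and 1020 bp at E13.5, 826 and 339 bp at E16.5, and 1071 and 954 bp at E18.5. In upper-layer neurons it was closed in both E17.5 and both P1 lists and open at P5 with 625 and 200 bp. Region 17, chr4:22418193-22419256, was open at deep-layer E13.5 with 202 and 363 bp and in 1 E16.5 list with 413 bp, and closed at E18.5. In upper-layer neurons region 17 covered 1025 and 1059 bp at E17.5, 755 and 669 bp at P1, and 266 bp in 1 P5 list. Region 31, chr4:22491085-22492397, outside the stretch of shared regions, was open in 7 of 8 prenatal lists, with 217 to 1238 bp, and in 1 postnatal list with 226 bp.

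**Figure D4:**
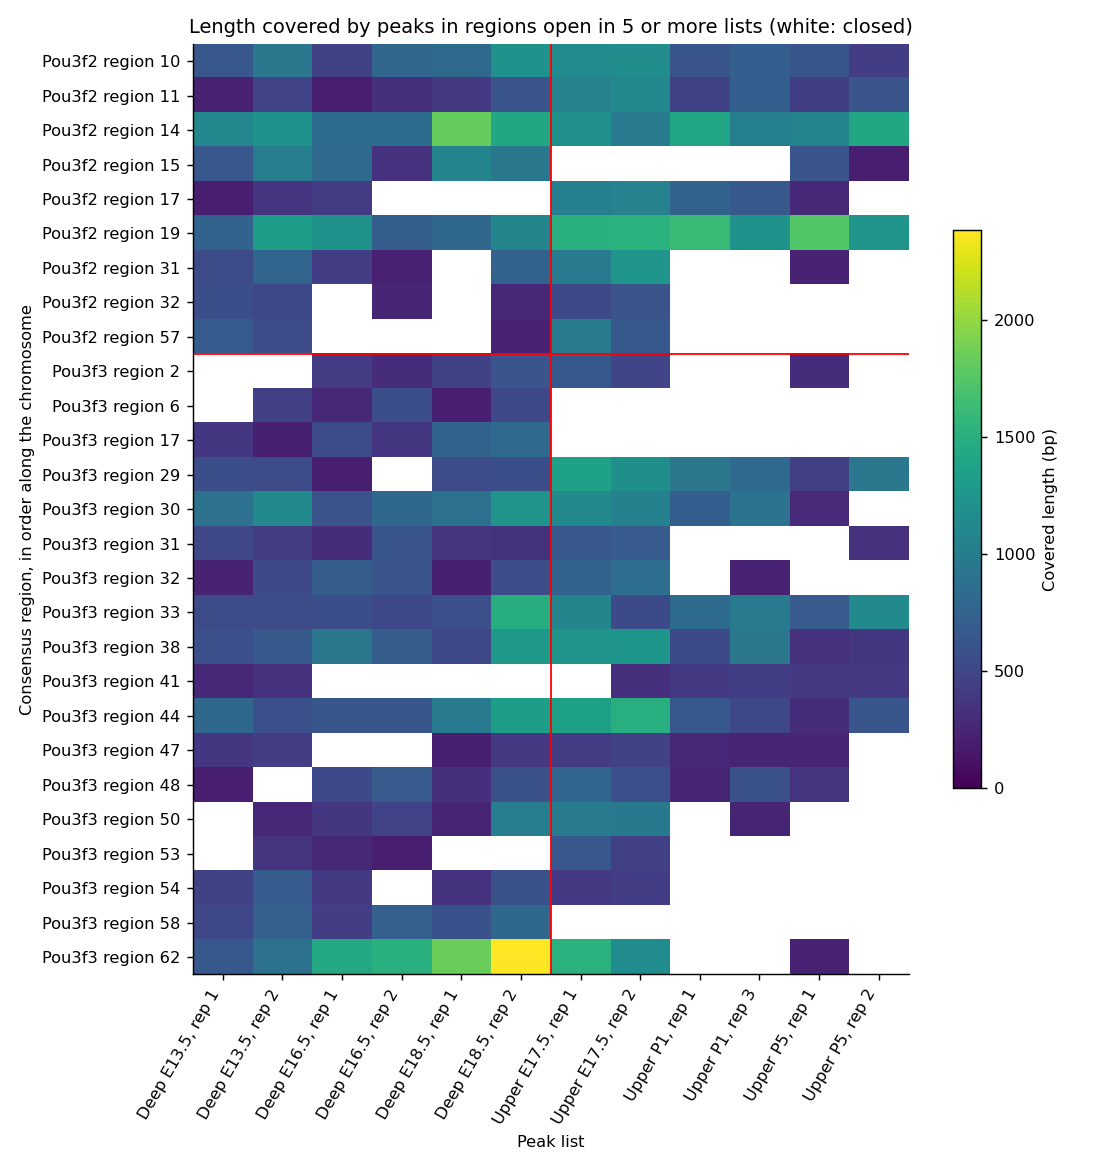
Length in bp covered by peaks (colour) in each list, for the regions open in 5 or more lists, with white where the region was closed. The horizontal line divides Pou3f2 from Pou3f3 regions and the vertical line deep-layer from upper-layer lists. Pou3f3 regions 17 and 58 are filled in all 6 deep-layer columns and white in all 6 upper-layer columns.

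Within deep-layer neurons 2 Pou3f2 regions were lost and 1 was gained between E13.5 and E18.5. Here lost means open in both lists of the first stage and neither of the last, and gained the opposite. Regions 17 and 24 were lost, 3.51% of the interval's regions against 5.65% of all regions. Region 24, chr4:22459090-22459424, was open at deep-layer E13.5 alone, with 310 and 215 bp, the only Pou3f2 region held by both lists of 1 group and no other list (3 at Pou3f3, 6.47% of all regions). Region 21, chr4:22435605-22436203, was gained, 1.75% of the interval's regions against 2.8% of all. It was closed at E13.5, covered 515 and 407 bp at E16.5 and 494 and 450 bp at E18.5, and was closed in every upper-layer list.

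Within upper-layer neurons 4 Pou3f2 regions were lost between E17.5 and P5, 7.02% of the interval's regions against 13.3% of all. In the same span 2 were gained, 3.51% against 2.97%. The 3 lost regions with the widest peaks were closed in all postnatal lists. Region 57, chr4:22594604-22595596, covered 993 and 656 bp at E17.5, and 695 and 553 bp at deep-layer E13.5. Region 32, chr4:22493013-22493674, covered 527 and 608 bp at E17.5, and region 26, chr4:22461603-22462715, 1113 and 899 bp. All 3 were also open in at least 1 deep-layer list. The gained regions were region 15 and region 27, chr4:22468761-22469416, which covered 656 bp in 1 P1 list and 345 and 381 bp at P5, and also 336 bp in 1 deep-layer E18.5 list. No Pou3f2 region was open in all lists of a population and none of the other.

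None of the 3 shared Pou3f3 regions differed between populations past the threshold. Region 33, chr1:42751605-42753092, with the widest median peak of the 3 at 560 bp, covered 540 and 556 bp at deep-layer E13.5, 571 and 513 bp at E16.5, and 582 and 1488 bp at E18.5. It covered 1086 and 536 bp at upper-layer E17.5, 836 and 982 bp at P1, and 682 and 1139 bp at P5. Replicates of E18.5 and E17.5 differed as much as the groups did (population difference 168.5 bp, exact permutation p = 0.381). In list widths region 33 was longer after birth, 2.92 ± 0.590 (SD, n = 4) against 1.66 ± 0.675 (SD, n = 8; exact permutation p = 0.0101, adjusted 0.0302), a call in the same 34.4% of all-list regions. In bp the difference of region 33 after birth was 176 (exact permutation p = 0.396, adjusted 0.555).

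Region 44, chr1:42769945-42771830, was made of 24 peaks in the 12 lists. It covered 791 and 583 bp at deep-layer E13.5, 636 and 635 bp at E16.5, and 968 and 1336 bp at E18.5. It covered 1357 and 1504 bp at upper-layer E17.5, 658 and 515 bp at P1, and 310 and 638 bp at P5. Among prenatal lists region 44 was 606 bp longer at E17.5 than in deep-layer neurons (1430.5 ± 104 bp, SD, n = 2, against 825 ± 287 bp, SD, n = 6). The exact permutation p was 0.0357, the smallest possible, and 0.278 adjusted, and 11.8% of all-list regions were longer. In list widths this difference was 0.991 (exact permutation p = 0.0714). The postnatal lists were lower by 446 bp (530 ± 160, SD, n = 4, against 976 ± 373 bp, SD, n = 8; exact permutation p = 0.0424, adjusted 0.117), as were 33.4% of all-list regions. In list widths the postnatal difference of region 44 was -0.504 (exact permutation p = 0.214, adjusted 0.316). Region 38, chr1:42760347-42762215, covered 338 to 1286 bp and differed between populations by -3.33 bp (exact permutation p = 0.987).

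Regions 17 and 58 of Pou3f3 were open in every deep-layer list and closed in every upper-layer list, 2 regions against 0.347% of all. Region 17, chr1:42708249-42709120, covered 380 and 207 bp at E13.5, 554 and 378 bp at E16.5, and 754 and 811 bp at E18.5. Region 58, chr1:42826911-42827738, covered 520 and 730 bp at E13.5, 437 and 731 bp at E16.5, and 600 and 798 bp at E18.5. Since they were closed at upper-layer E17.5 as well, their pattern was present among the prenatal lists alone. By Fisher's exact test each had p = 0.00216 and, adjusted over the 42767 regions open in 5 to 7 lists, 0.0501. With no filter on open lists the smallest adjusted p at Pou3f3 by this exact test was 0.584. Only 1 such region was found with 0.5 of a region covered, with the widest peaks or with thinned lists. Region 6, chr1:42674579-42675335, was open in 5 deep-layer lists, with 204 to 569 bp, and in no upper-layer list (Fisher's exact test p = 0.0152, adjusted 0.109). Few regions of the loci were open in 5 to 7 lists and so tested. At Pou3f3 these were 2 open in 5 lists, 2 in 6 and 3 in 7. At Pou3f2 they were 1 open in 5 lists and 1 in 6. Of these tested regions only regions 6, 17 and 58 of Pou3f3 had an unadjusted p under 0.05. Over the genome 12.3% of tested regions met this threshold with openness more frequent in deep-layer neurons, and 1.64% with the reverse. After adjustment 0% of the genome's tested regions passed. No region of either locus was open in all upper-layer lists and no deep-layer list, a class that held 0.0235% of all regions.

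Some Pou3f3 regions were open in prenatal lists of both populations and in few of the postnatal lists, which were all upper-layer. None was open in all 8 prenatal lists and closed in all postnatal lists (1.79% of all regions), and none showed the opposite pattern (0.549%). Region 31, chr1:42748080-42748848, was open in all 8 prenatal lists, with 302 to 684 bp, and in 1 P5 list with 343 bp. Region 62, chr1:42836611-42839615, the longest of the interval at 3005 bp, was singled out after its values were seen. It covered 655 and 887 bp at deep-layer E13.5, 1438 and 1514 bp at E16.5, and 1851 and 2382 bp at E18.5, each stage above the one before. It covered 1520 and 1162 bp at upper-layer E17.5, was closed at P1, and covered 238 bp in 1 P5 list.

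Stage changes at Pou3f3 were of the same kinds as at Pou3f2. Deep-layer neurons lost 4 regions, 6.15% of the interval's regions against 5.65% of all, and gained 2, 3.08% against 2.8%, shares near those of the genome. Region 11, chr1:42686623-42687143, was open at the first stage of each population alone, with 503 and 415 bp at deep-layer E13.5 and 440 and 292 bp at upper-layer E17.5. Region 56, chr1:42820182-42820702, was open at deep-layer E13.5 alone, with 339 and 437 bp. Region 41, chr1:42765886-42766432, was open at E13.5 with 268 and 337 bp, closed in the other deep-layer lists, and open in 5 of 6 upper-layer lists with 323 to 441 bp. The gained regions were region 2, chr1:42656007-42656836, with 306 to 625 bp in the 4 later deep-layer lists and 652 and 499 bp at upper-layer E17.5 (312 bp in 1 P5 list), and region 28, chr1:42737362-42738185, with 240 to 711 bp in those 4 lists.

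Upper-layer neurons lost 6 Pou3f3 regions, 9.23% of the interval's regions against 13.3% of all, and gained 1, 1.54% against 2.97%. Region 50, chr1:42779942-42781180, covered 989 and 963 bp at E17.5 and 243 bp in 1 P1 list, and was also open in 5 deep-layer lists. Region 32, chr1:42749979-42751081, covered 758 and 863 bp at E17.5 and 233 bp in 1 P1 list, and was open in all 6 deep-layer lists with 205 to 706 bp. Region 59, chr1:42831911-42832620, was open at E17.5 alone, with 710 and 551 bp. The gained region 24, chr1:42733249-42733693, was open at P5 alone, with 445 and 311 bp. The order of losses and gains rested on the P5 lists: without P5 replicate 2 upper-layer neurons lost 7 and gained 16 regions at Pou3f3, and lost 4 and gained 7 at Pou3f2. Without P5 replicate 1 they lost 11 and gained 4 at Pou3f3, and lost 6 and gained 11 at Pou3f2.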

How the data were processed

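The data were 12 ATAC-seq peak lists, 1 per sample. The authors deposited chromosome, start, end and name of each peak, with no score, height or p-value, so peaks were listed per sample. Per the submitters' processing notes, the build was mm9 and the tools included MACS2 2.1.0, Picard 1.14.0, Bowtie2 and cutadapt. The sources used here give no read numbers, thresholds or shift of reads for the transposase, so the depth is unknown and list length stands in for it.

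Differences of means were tested by exact permutation of list labels, two-sided, and the same tests on windows of equal length gave the background and the Benjamini-Hochberg adjustment. Regions were tested by Fisher's exact test. The 3 widest regions per set were named. The code was tested on simulated data. Alternatives were raw numbers, the widest 96452 peaks, thinning, peak midpoints, intervals shortened by 25 kb at each end, 0.5 coverage, 500 bp windows, age-overlapping stages and each list left out. Python 3.11.15, numpy 2.4.6, pandas 2.3.3, scipy 1.17.1 and matplotlib 3.10.9 were used. The members and lists were chosen with earlier results of these data known.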

Additional observations from a re-analysis of the deposited data

Results flagged for a closer look

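Of 12 groups of lists examined for an outlying list (6 lists of a population, for 3 measures at 2 loci), 1 was found, where chance gives about 5% of groups: at Pou3f3 the median peak width of deep-layer E18.5 replicate 2 was 564 bp, against 345.5 to 378 bp in the other deep-layer lists. Over its whole list the median width of that replicate was 476 bp, also the highest of the deep-layer lists.

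Changes from the first to the last stage went in opposite directions in the populations for 3 measures, in every pair of lists, and these differences were not tested. At Pou3f2 peaks per 100000 changed by -1.40 in deep-layer and by 2.62 in upper-layer neurons. For this measure the order held only narrowly in some pairs. Upper-layer P5 replicate 1 had 12.18 against 12.17 in E17.5 replicate 2. Deep-layer E18.5 replicate 1 had 11.40 against 11.54 in E13.5 replicate 1. The median width at Pou3f2 changed by 108.75 bp in deep-layer and by -263.25 bp in upper-layer neurons. At Pou3f3 it changed by 119.25 bp and by -286.75 bp. The median width of all peaks changed by 52.5 bp and by -164 bp in the same direction, and the part of this change in the widths at the loci was not tested.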

How the results depend on the processing

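No tested difference changed sign under any alternative run. The Pou3f2 population difference missed the threshold as raw peaks (3, exact permutation p = 0.106), thinned (1.21, exact permutation p = 0.429, against 4.32 with the widest peaks), shortened by 25 kb (1.41, exact permutation p = 0.143) and at overlapping ages (1.93, exact permutation p = 0.0571). With each list left out it ran from 1.47 to 2.51. The Pou3f2 postnatal difference missed it as raw peaks (2.125) and thinned (1.43). Using the widest peaks, the Pou3f2 E17.5 difference was 3.28 (exact permutation p = 0.0357) and the covered-length difference 1.14 points (exact permutation p = 0.0108), which ran from 0.640 to 1.22 with each list left out and passed without deep-layer E13.5 replicate 2 or P5 replicate 2. The Pou3f3 population difference missed it as raw peaks (-4.83) and with the widest peaks (-2.42, exact permutation p = 0.318). The Pou3f3 E17.5 difference missed it as raw peaks (-2.67), with the widest peaks (-2.25) and thinned (-5.53), and ran from -5.62 to -4.46 with each list left out. It passed only without deep-layer E13.5 replicate 1 or E16.5 replicate 1. The Pou3f3 postnatal difference ran from -5.41 to -2.59. The causes were not tested.

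With the replicate block (labels permuted within replicate number), the Pou3f3 E17.5 difference of -5.08 had an exact permutation p of 0.0625, the same as regions 11 and 19 of Pou3f2 at E17.5 (712 and 527.5 bp). That is the smallest p the block allows for these lists, so the threshold could not be passed there. No other call changed. The deviations of same-numbered lists correlated at r from -0.219 to 0.294 over 10 pairs of groups. Only the 3 pairs among deep-layer E13.5, E16.5 and upper-layer E17.5 were above 0.1, so the numbers were not taken to pair the lists.

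Region counts also moved. With 0.5 of a region covered, 0 regions were open in all lists at either locus, 8 and 12 were lost and 1 gained in upper-layer neurons (the last at Pou3f2), 2 Pou3f2 regions were open in 1 group alone, and at Pou3f3 1 was deep-layer alone and 5 were gained in deep-layer neurons. In 500 bp windows 2 Pou3f2 regions were open in 1 group alone and 1 Pou3f3 region was prenatal alone. With the widest peaks Pou3f2 had 37 regions, 17 of them in a single list, 2 gained in deep-layer and 1 in upper-layer neurons. Pou3f3 then had 5 gained and 2 lost in deep-layer neurons, 1 deep-layer alone and 1 prenatal alone. By Fisher's exact test 1 Pou3f2 region passed unadjusted with the widest peaks and 1 when thinned, and 1 Pou3f3 region passed adjustment with the widest peaks (adjusted p = 0.0327). When thinned, 0 Pou3f2 and 1 Pou3f3 regions were open in all lists, 1 and 2 were lost in deep-layer neurons, 0 and 1 were open in 1 group alone, and Pou3f2 had 0 gained in deep-layer and 1 in upper-layer neurons. Pou3f3 then had 1 deep-layer alone and 3 lost in upper-layer neurons. With a list left out, a stage rests on the lone other list, and without a P5 list gains outnumbered losses at Pou3f2 (and, without P5 replicate 2, at Pou3f3). At Pou3f2 the ranges were 0 to 3 postnatal alone, 2 to 6 lost and 1 to 3 gained in deep-layer, 4 to 11 lost and 2 to 11 gained in upper-layer neurons, and 2 to 9 in 1 group alone. At Pou3f3 they were 0 to 1 prenatal alone, 0 to 1 postnatal alone, 4 to 11 lost and 2 to 4 gained in deep-layer, 6 to 11 lost and 1 to 16 gained in upper-layer neurons, and 3 to 14 in 1 group alone.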
